A study of Drosophila melanogaster with 12 samples.

Results

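Nab2, a pair of proteins known to work with it in neurons, and core proteins that bind, lengthen or shorten the poly(A) tail were followed in RNA from fly heads with and without Nab2. The members are 10 genes taken for their known function, with earlier results of these data known: Nab2 itself, its partners Fmr1 and Atx2, the poly(A)-binding protein genes pAbp and Pabp2, the poly(A) polymerase gene hrg, the deadenylase genes twin, Pop2 and Not1, and orb2. They are 10 of the 17737 genes in the count files, and all 10 were among the 11223 genes with enough counts to test. Each sample pooled whole heads of 60 newly-eclosed Drosophila melanogaster adults of 1 sex, collected on dry ice, and RNA was sequenced after removal of ribosomal RNA. There were 3 libraries of wild-type females and 3 of wild-type males, both of genotype Nab2pex41, and 3 libraries of null females and 3 of null males, both of genotype Nab2ex3. The labels name no tissue-specific driver, so the allele was carried by the whole fly, and the values are those of all cells of the head. The series' own description calls the 3 samples of a group biological replicates, so p-values measure the spread between pools of heads.

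A poly(A) tail is added to nearly every messenger RNA in the nucleus, is covered by poly(A)-binding proteins that favour export and translation, and is removed in the cytoplasm by the CCR4-NOT complex, after which the RNA is decapped and degraded. Nab2 is a zinc finger protein that binds polyadenosine RNA, is the fly counterpart of human ZC3H14, and is known to restrict tail length and to be needed in neurons. Fmr1, the fly fragile X protein, represses translation of neuronal messages and binds Nab2, and Atx2 binds the cytoplasmic poly(A)-binding protein and interacts genetically with Nab2.

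The libraries held 23648813 to 30751922 counts assigned to genes. Null female library 1 was unlike the other null female libraries. The SD of log2 ratios between it and them was 0.382 and 0.421, against 0.168 to 0.284 for the other 10 pairs of replicates, so results in females are given with and without it where it matters. The tissue was checked against lists of marker genes. The summed level of 4 neuron markers (elav, nSyb, brp and Syt1), in CPM (counts put on a common library size with TMM factors), was 1383 to 1443 in wild-type females, 1376 to 1882 in wild-type males and 1453 to 1575 in null males. In null females it was 893 in library 1, 1263 in library 2 and 1226 in library 3, so every null female library was below every other library. The 4 photoreceptor markers summed to 20227 to 22812 CPM in wild-type libraries of both sexes and 23459 to 32965 in null libraries, and the 3 glial markers to 2018 to 2596 in all 12. The 3 muscle markers summed to 8637 to 10538 CPM in wild-type and 5696 to 8440 in null females, without overlap. In males they summed to 6822.5 to 7217 in wild type and 6049 to 8278 in the null. The 3 fat body markers (apolpp, Lsp2 and Fbp1) summed to 1110 to 2175 CPM in wild-type and 6058 to 8444 in null females, and to 1232 to 2589 in wild-type and 2352 to 5201 in null males. Germ line markers (vas, nos, osk and bam) stayed at or under 0.535 CPM summed, and bam was at 0 in wild-type females. Testis markers stayed at or under 4.48, with Mst84Da at 0 in females of both genotypes.

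In wild-type heads the cytoplasmic poly(A)-binding protein gene was the most abundant member by a wide margin. Per kilobase of annotated exon, over the 6 wild-type libraries, pAbp stood at 529 ± 46.4 CPM (SD, n = 6). Not1, which encodes the scaffold of the CCR4-NOT complex, followed at 36.8 ± 3.597 (SD, n = 6), and Pop2, which encodes its CAF1 deadenylase, at 28.9 ± 1.18 (SD, n = 6). The ranges of these 3 genes were apart from each other and from that of the gene next below, hrg, which encodes the nuclear poly(A) polymerase (20.5 ± 0.450 CPM per kilobase). After it came orb2 (17.3 ± 1.81), Nab2 (17.3 ± 0.701) and Atx2 (16.8 ± 2.64), all in CPM per kilobase, and in these 4 genes the range of each overlapped that of the next. The least abundant were Fmr1 (11.0 ± 0.532), twin (10.8 ± 1.19) and Pabp2 (9.32 ± 0.981), which overlapped likewise, while Atx2 and Fmr1 were apart.

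Nab2 was examined first, since it checks the labels. The gene lies on 3R from 24314660 to 24318419 on the minus strand (FBgn0028471, Ensembl annotation of assembly BDGP6.54) and has 1 annotated transcript. Its levels were 58.4, 62.1 and 57.3 CPM in wild-type females and 0.580, 0.771 and 1.198 CPM in null females. Wild-type males had 60.0, 60.1 and 64.002 CPM and null males 3.21, 0.607 and 0.456 CPM. All 6 null libraries were far below all 6 wild-type libraries, and null male library 1 kept the most. Nab2 fell to 1.43% of the wild-type level in females and to 2.32% in males, with log2 changes of -6.10 (SE 0.46, adjusted p 1.08e-05 by edgeR) and -5.41 (SE 0.43, adjusted p 1.51e-05 by edgeR). In the authors' deposited table the log2 change of Nab2 was smaller in size, -2.35 (adjusted p 4.98e-13) in females and -2.27 (adjusted p 5.69e-12) in males. The 18 alternatives used here, unshrunken DESeq2 among them, gave -6.43 to -5.91 in females and -6.83 to -4.99 in males. The deposited sizes are therefore not to be read as the level of Nab2 that was left, and why they are smaller was not tested. Among all 11223 genes Nab2 ranked 19th by p-value in females and 25th in males.

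The genes beside Nab2 were listed because an allele at the locus could touch them. The nearest, crb, which encodes the apical polarity protein Crumbs, ends 118 bp from Nab2, and BRWD3 begins 580 bp on its other side. The log2 change of crb was -0.07 (SE 0.07, adjusted p 0.484 by edgeR) in null females and 0.08 (SE 0.07, adjusted p 0.583 by edgeR) in null males. For BRWD3 it was -0.33 (SE 0.12, adjusted p 0.0570 by edgeR) in females and -0.07 (SE 0.12, adjusted p 0.818 by edgeR) in males. Neither passed the test in either sex, and in females the null libraries of BRWD3 lay below the wild-type ones without overlap. Of the others, Uck (CG6364 in the files), Rrp5 (CG5728 in the files) and Dis3, the exosome ribonuclease gene 15013 bp away, had log2 changes between -0.09 and 0.08 and passed in neither sex, and CG5715 had too few counts to test. The deadenylase gene twin lies on the same arm, 92.7 kb from Nab2.

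**Figure D1:**
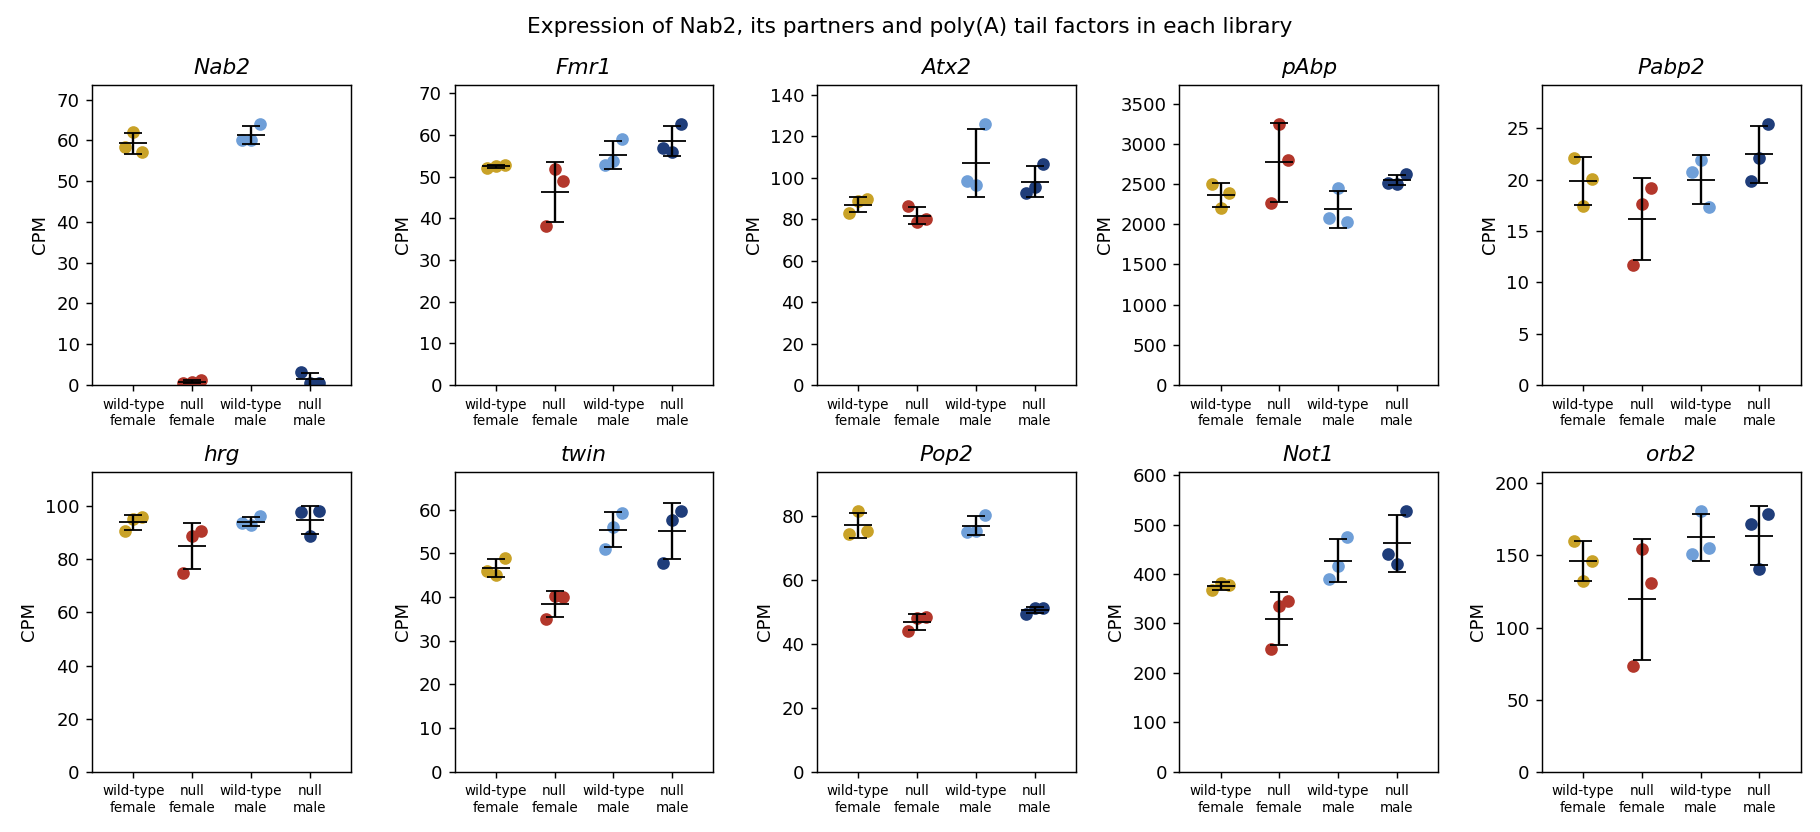
Levels of the 10 members in each of the 12 libraries. Each panel is 1 gene, the vertical axis is CPM on a linear scale starting at 0, points are libraries, and the marks with bars are group means with their SD. Nab2 is near 0 in both null groups, and Pop2 is lower in the null libraries of both sexes without overlap.

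Beside Nab2, 1 member, the deadenylase gene Pop2, was lower in the null in both sexes. In females 3 of 10 members passed an adjusted p under 0.05 (Nab2, Pop2 and twin, all lower in the null), where 31.8% of all tested genes passed and 13.6% passed as lower. In males 2 of 10 passed (Nab2 and Pop2, both lower), where 9.93% of all genes passed and 5.03% as lower. Nab2 is the mutated gene, and without it 2 of 9 members passed in females and 1 of 9 in males. Being called lower in both sexes was rarer, with 3.64% of tested genes (408). The 9 members other than Nab2 had a median log2 change of -0.28 in females, against 0.01 for all tested genes, and of 0.01 in males, against -0.00. Without null female library 1 the female median was -0.12. In females 8 of these 9 genes had a fitted change below 0, and in males 3 did. With RNA from whole heads, fewer cells of a type and less RNA per cell cannot be told apart.

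**Figure D2:**
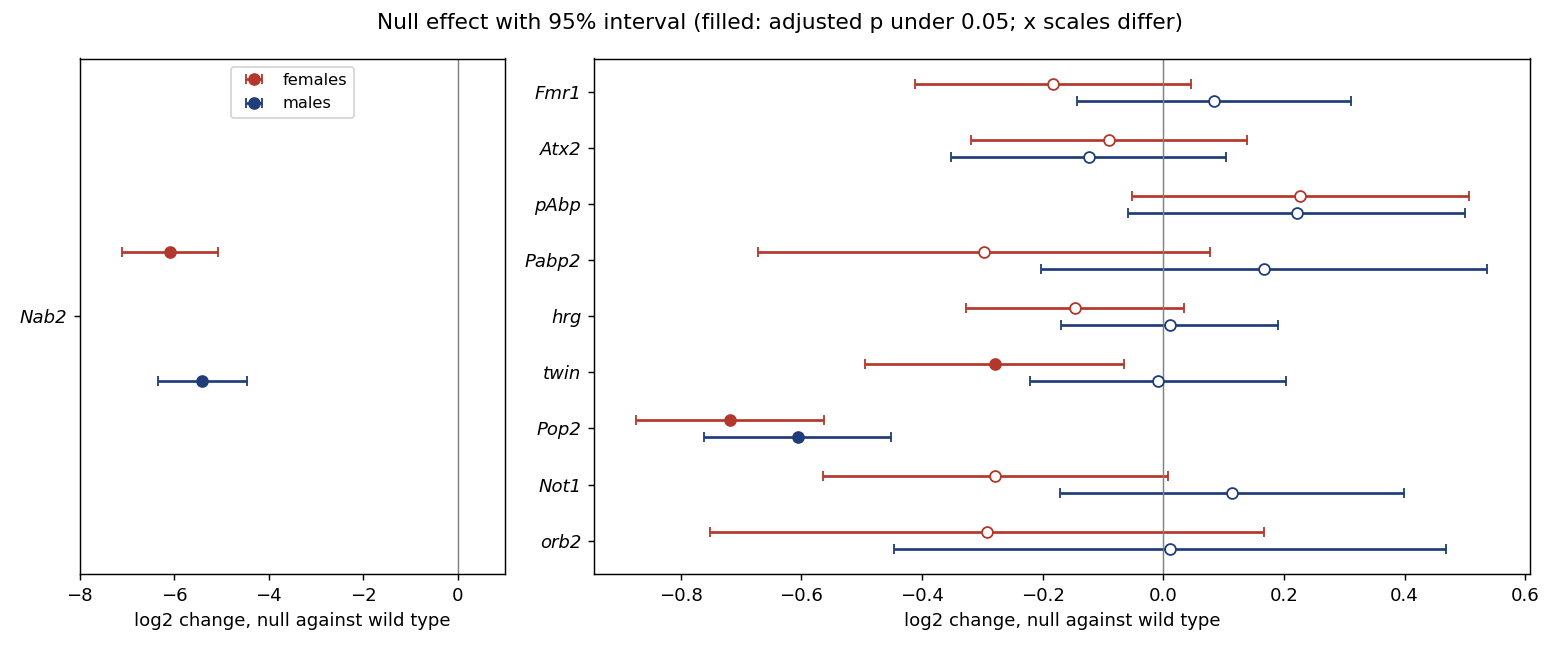
Log2 change of each member between null and wild type, in females and males, with the 95% interval of the edgeR fit over the 12 libraries. Filled points have an adjusted p under 0.05, and Nab2 is drawn on its own axis because its change is much larger. Only Pop2 among the other 9 members is called in both sexes.

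Of the deadenylase genes, Pop2 was lower in the null in both sexes and twin in females. CAF1, encoded by Pop2, and CCR4, encoded by twin, are the catalytic pair of the CCR4-NOT complex, and Not1 holds them together. Pop2 lies on 3L from 11998398 to 12002915 on the minus strand (FBgn0036239), and its exons overlap no other annotated exon. Its levels were 74.5, 81.6 and 75.1 CPM in wild-type females and 43.9, 48.1 and 48.5 CPM in null females. Wild-type males had 75.0, 75.3 and 80.4 CPM and null males 49.5, 51.1 and 51.0 CPM. Wild-type libraries of the sexes overlapped, and every null library was below every wild-type library. The group means were 77.1 ± 3.93 and 46.9 ± 2.55 CPM (SD, n = 3 each) in females, and 76.9 ± 3.03 and 50.5 ± 0.909 CPM (SD, n = 3 each) in males. Pop2 thus fell to 60.8% of the wild-type level in females (log2 change -0.72, SE 0.07, 95% interval -0.87 to -0.56, adjusted p 6.36e-05 by edgeR) and to 65.7% in males (log2 change -0.61, SE 0.07, 95% interval -0.76 to -0.45, adjusted p 0.000300 by edgeR). By p-value it ranked 61st of 11223 genes in females and 75th in males. The call held in all 18 alternatives in each sex, with log2 changes between -0.83 and -0.67 in females and between -0.64 and -0.57 in males. It was -0.68 in females without null female library 1. In the authors' deposited table, Pop2 had a log2 change of -0.72 (adjusted p 8.28e-19) in females and -0.59 (adjusted p 2.61e-12) in males.

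The other catalytic subunit gave a smaller and less stable difference. The twin gene lies on 3R from 24196893 to 24221965 on the minus strand (FBgn0011725). Its levels were 46.0, 45.0 and 48.9 CPM in wild-type females and 35.0, 40.2 and 40.09 CPM in null females. In males they were 51.1, 56.0 and 59.2 CPM in wild type and 47.9, 57.7 and 59.7 CPM in the null. The female groups did not overlap and the male groups overlapped widely. In females twin fell to 82.4% of the wild-type level (log2 change -0.28, SE 0.10, adjusted p 0.0479 by edgeR), and in males the log2 change was -0.01 (SE 0.10, adjusted p 0.978 by edgeR). The female call was lost in 13 of 18 alternatives, with changes from -0.31 to -0.23 and adjusted p of 0.0507 to 0.151 by edgeR. These were the fit without a filter on low counts, the fit of the female libraries alone and the fits that left out any 1 library except null male library 1. Without null female library 1 the change was -0.23 (adjusted p 0.109 by edgeR). The exons of twin share 454 bp, 9.61% of their length, with cav on the other strand, which stood at 2.65 to 3.45 CPM on average in the 4 groups.

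Not1 was lower in every null female library than in every wild-type female library but did not pass the test. It lies on 2R from 9566146 to 9579007 on the minus strand (FBgn0085436), and 103 bp of its exons, 0.944%, are shared with a long noncoding RNA gene on the other strand. Its levels were 368, 382 and 378 CPM in wild-type females and 248, 335 and 346 CPM in null females. In males they were 391, 417 and 474 CPM in wild type and 439.6, 419.7 and 528 CPM in the null, and these groups overlapped. The log2 change was -0.28 (SE 0.13, adjusted p 0.121 by edgeR) in females and 0.11 (SE 0.13, adjusted p 0.682 by edgeR) in males. Null female library 1 was the lowest, and without it the female change was -0.15 (adjusted p 0.301 by edgeR).

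The partners of Nab2 showed no difference in RNA level that passed the test between null and wild type. Fmr1 (3R, 10101420 to 10110121, minus strand, FBgn0028734) stood at 52.1, 52.6 and 52.8 CPM in wild-type females and 38.1, 51.7 and 49.0 CPM in null females. Its levels were 52.7, 53.8 and 59.0 CPM in wild-type males and 57.0, 55.9 and 62.6 CPM in null males. The null female libraries were all below the wild-type females, library 1 by the most, and the male groups overlapped. The log2 change was -0.18 (95% interval -0.41 to 0.05, adjusted p 0.197 by edgeR) in females, -0.07 without null female library 1, and 0.08 (95% interval -0.14 to 0.31, adjusted p 0.707 by edgeR) in males. Atx2 (3R, 15408423 to 15417277, plus strand, FBgn0041188) stood at 82.7, 88.5 and 89.6 CPM in wild-type and 86.4, 78.4 and 80.2 CPM in null females. In males it had 98.5, 96.4 and 125.8 CPM in wild type and 92.4, 95.3 and 106.7 CPM in the null. The groups overlapped in both sexes. Its log2 change was -0.09 (95% interval -0.32 to 0.14, adjusted p 0.529 by edgeR) in females and -0.12 (95% interval -0.35 to 0.10, adjusted p 0.546 by edgeR) in males.

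Of the poly(A)-binding proteins, pAbp was the only member whose fitted change was above 0 in females. pAbp (2R, 18140078 to 18147191, plus strand, FBgn0265297) encodes the cytoplasmic protein. It stood at 2500.1, 2205 and 2396 CPM in wild-type females and 2263, 3248 and 2802 CPM in null females. In males the levels were 2078, 2451 and 2032 CPM in wild type and 2518, 2506 and 2624 CPM in the null. The male groups did not overlap, the null being higher as in 16.4% of all tested genes, while in females null library 1 fell among the wild-type libraries. The log2 change was 0.23 (SE 0.13, adjusted p 0.188 by edgeR) in females and 0.22 (SE 0.13, adjusted p 0.334 by edgeR) in males. Without null female library 1 the female change was 0.34 and passed (adjusted p 0.0313 by edgeR).

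Pabp2 (2R, 8131431 to 8134374, plus strand, FBgn0005648) encodes the nuclear poly(A)-binding protein, which stimulates the poly(A) polymerase. Its levels were 22.1, 17.4 and 20.1 CPM in wild-type females and 11.6, 17.6 and 19.2 CPM in null females. In males they were 20.7, 21.9 and 17.3 CPM in wild type and 19.8, 22.1 and 25.4 CPM in the null. Both pairs of groups overlapped. The log2 change was -0.30 (95% interval -0.67 to 0.08, adjusted p 0.200 by edgeR) in females, -0.12 without null female library 1, and 0.17 (95% interval -0.20 to 0.54, adjusted p 0.633 by edgeR) in males. Its exons share 205 bp, 9.59% of their length, with Obp44a on the other strand, an odorant-binding protein gene that averaged 1083 to 1302 CPM in the 4 groups. The strand setting of the authors' counting is not given in the sources used here, so reads from that stretch cannot be assigned to Pabp2 with certainty. Obp44a, cav and CG43783, named below, are outside the naming rule and were chosen after values were seen, and none of them passed in any of the 5 comparisons.

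The polymerase and the CPEB protein did not pass in either sex. hrg (2R, 19663919 to 19669832, minus strand, FBgn0015949) stood at 90.7, 95.3 and 95.8 CPM in wild-type females and 75.0, 88.9 and 90.7 CPM in null females, all below the wild-type libraries though by little. In males the levels were 93.6, 92.9 and 96.1 CPM in wild type and 97.7, 88.8 and 98.2 CPM in the null, which overlapped. The log2 change was -0.15 (SE 0.08, adjusted p 0.191 by edgeR) in females and 0.01 (SE 0.08, adjusted p 0.961 by edgeR) in males. The 95% interval of the male value ran from -0.17 to 0.19, and the female value was -0.08 without null female library 1. orb2 (3L, 8937100 to 8954463, minus strand, FBgn0264307), a CPEB protein needed for long-term memory, binds messages whose tails are lengthened or shortened in the cytoplasm. Its levels were 160.2, 132 and 146 CPM in wild-type females and 73.2, 154 and 131 CPM in null females. In males they were 151, 181 and 155 CPM in wild type and 171, 141 and 179 CPM in the null. Only null female library 1 was outside the range of the others. The log2 change was -0.29 (SE 0.21, adjusted p 0.301 by edgeR) in females, -0.05 without that library, and 0.01 (SE 0.21, adjusted p 0.987 by edgeR) in males. The exons of orb2 share 1319 bp, 14.8% of their length, with CG43783 on the same strand, which averaged 71.8 to 80.6 CPM in the 4 groups, so reads there are uncertain whatever the strand setting.

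Across the members, 6 of 10 had null female libraries entirely below the wild-type ones (Nab2, Fmr1, hrg, twin, Pop2 and Not1), where 23.2% of all tested genes did. Without Nab2, the mutated gene, they were 5 of 9. Null female library 1 was the lowest of the 3 for 8 of the 9 members other than Nab2, all but Atx2. Its neuron and muscle marker sums were the lowest of the 12, and its photoreceptor, glial and fat body sums were the highest. The other null female libraries were also below every library of the other groups in the neuron sum. The part of cell content in these values was not tested.

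The difference of the null effect between the sexes was tested itself. No member passed, and none had an unadjusted p under 0.05. Over all genes 0.00891% passed by edgeR's quasi-likelihood test, and with DESeq2 no member passed either. The values, female minus male on the log2 scale, were -0.11 for Pop2 (SE 0.10, 95% interval -0.33 to 0.11, adjusted p 0.583 by edgeR) and -0.27 for twin (SE 0.14, 95% interval -0.57 to 0.03, adjusted p 0.436 by edgeR). For Pabp2 the difference was -0.46 (SE 0.24, 95% interval -0.99 to 0.06, adjusted p 0.437 by edgeR), and for Not1 -0.39 (SE 0.18, 95% interval -0.79 to 0.01, adjusted p 0.430 by edgeR). They were -0.29 and -0.27 without null female library 1. For Nab2 the value was -0.69 (95% interval -2.14 to 0.76, adjusted p 0.608 by edgeR), and it was 0.74 without null male library 1. The effect of the null on twin, called in females and not in males, is therefore not shown to differ between the sexes.

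Males and females were compared within each genotype. In wild type 0 of 10 members passed, where 3.37% of all genes did, and 2 had an unadjusted p under 0.05, Atx2 and twin, both with male libraries above female ones without overlap, as were those of Not1. Of all tested genes 17.3% had such a p, and 15.3% had male libraries above female ones without overlap. Atx2 was higher in wild-type males by 0.30 on the log2 scale (SE 0.10, adjusted p 0.167 by edgeR) and twin by 0.25 (SE 0.10, adjusted p 0.216 by edgeR). Nab2 did not differ beyond its spread (log2 0.05, 95% interval -0.65 to 0.75), nor did Pop2 (log2 -0.00, 95% interval -0.16 to 0.15). The interval of Nab2 rests on a spread fitted over all libraries, null ones with few counts included. In wild type alone Nab2 varied less, at 59.3 ± 2.54 CPM in females and 61.4 ± 2.27 CPM in males (SD, n = 3 each).

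Among null heads 3 of 10 members were higher in males: twin, Not1 and Fmr1. Of all tested genes 29.1% passed in this comparison and 13.1% as higher in males. The libraries given above show that null males exceeded null females without overlap for these 3 and also for Atx2, Pabp2 and Pop2, where 19.5% of all genes did so in that direction. For twin the male level was 143% of the female level (log2 0.52, SE 0.10, adjusted p 0.00624 by edgeR), and the call held in all 19 alternatives. For Not1 it was 149% (log2 0.58, SE 0.13, adjusted p 0.0113 by edgeR). That call was lost when the null libraries were fitted alone (log2 0.61, adjusted p 0.0617 by edgeR) and without null male library 3 (log2 0.47, adjusted p 0.0564 by edgeR). For Fmr1 it was 126% (log2 0.34, SE 0.10, adjusted p 0.0334 by edgeR), and the call was lost in 7 of 19 alternatives, with values from 0.23 to 0.39 and adjusted p of 0.05003 to 0.125 by edgeR. They include the fit of the null libraries alone and the fits that omitted wild-type female library 3, null female library 1 or any 1 of the null male libraries. Same-numbered null libraries of the sexes deviated together for numbers 1 and 3 and only weakly for number 2 (r 0.374, 0.437 and 0.115). The null libraries were therefore also fitted with the replicate number as a block. In that fit Not1 (log2 0.62, adjusted p 0.0257 by edgeR) and twin (log2 0.55, adjusted p 0.0160 by edgeR) passed, Pabp2 passed as well (log2 0.53, adjusted p 0.0304 by edgeR, against log2 0.47 and 0.0563 without the block), and Fmr1 did not (log2 0.39, adjusted p 0.0609 by edgeR). In this comparison 5 members passed in the authors' deposited table, these 4 and Atx2.

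**Figure D3:**
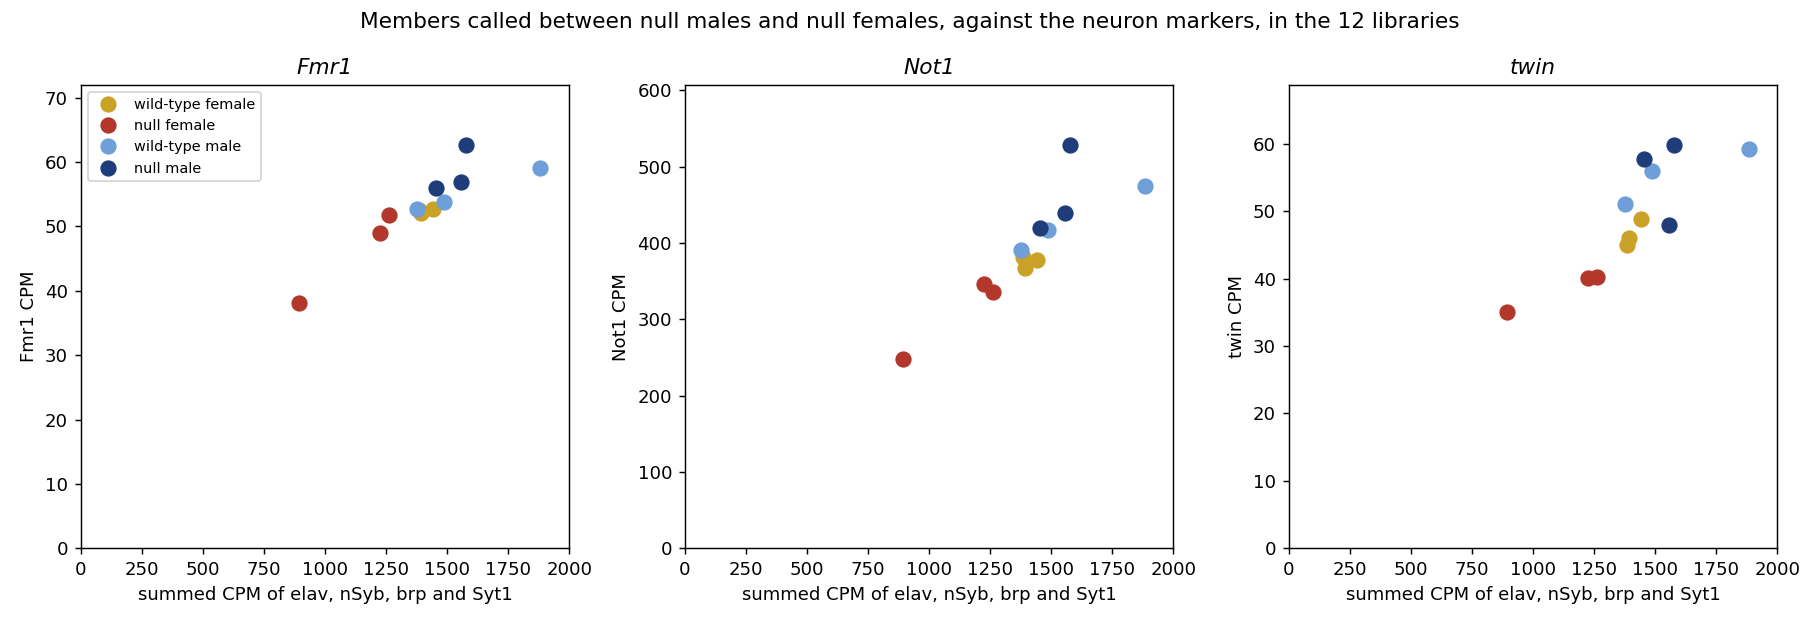
Levels of Fmr1, Not1 and twin in each library (vertical axes, CPM from 0) against the summed CPM of the neuron markers elav, nSyb, brp and Syt1 (horizontal axes), colored by group. The 3 null female libraries sit at the left, from 893 to 1263 summed CPM, and hold the 3 lowest values of each gene. The genes shown are the members called higher in null males than in null females. Their low values in null females follow in part from that choice.

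Between null males and null females, the glial, photoreceptor and muscle lists held markers of both directions. All fat body markers had lower means in null males. The medians of these lists were below 0. The neuron markers moved in the direction of these 3 genes. Of the 4 markers, elav (log2 0.50, adjusted p 0.0335 by edgeR), nSyb (log2 0.66, adjusted p 0.0244 by edgeR) and brp (log2 0.80, adjusted p 0.0161 by edgeR) were also higher in null males than in null females, while Syt1 (log2 0.26, adjusted p 0.111 by edgeR) did not pass. Of the 3 glial markers, repo was higher in null males (log2 0.27, adjusted p 0.0177 by edgeR) and the other 2 did not pass. Gs2 and Eaat1 had lower means in null males (951 and 1080.5 CPM) than in null females (1085 and 1200 CPM). The glial median was -0.15. Of the 3 fat body markers, Lsp2 was lower in null males (log2 -1.13, adjusted p 0.0249 by edgeR), and the median of these 3 was -0.91. No photoreceptor or muscle marker passed, and their medians were -0.12 and -0.10, where that of all tested genes was -0.06. Of these markers norpA was higher in null males without overlap (1446 to 1590 CPM, against 945 to 1345 in null females). The mean of up was also higher in null males (549 against 467 CPM). The other photoreceptor and muscle markers had lower means in null males. Without null female library 1 the values were 0.47 for twin (adjusted p 0.0109 by edgeR), 0.45 for Not1 (adjusted p 0.0154 by edgeR) and 0.23 for Fmr1 (adjusted p 0.05003 by edgeR). The part of cell content in the sex difference was not tested.

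The surroundings of Pop2 were looked at after its values were seen, and its neighbours, the window and the distances below are outside the naming rule. Several genes beside Pop2 moved with it. Grip163, a gamma-tubulin complex gene whose end is 259 bp from Pop2, averaged 34.3 ± 1.88 CPM in wild-type and 22.2 ± 3.64 CPM in null females (SD, n = 3 each). In males it averaged 39.9 ± 3.34 and 32.1 ± 1.61 CPM (SD, n = 3 each). Its log2 change was -0.62 (SE 0.11, adjusted p 0.00243 by edgeR) in females and -0.32 (SE 0.11, adjusted p 0.100 by edgeR) in males, and the groups did not overlap in either sex. On the other side, CG6928, 239 bp away, fell by 0.53 on the log2 scale in females (SE 0.09, adjusted p 0.00186 by edgeR) and by 0.46 in males (SE 0.09, adjusted p 0.00884 by edgeR). Next to it rols, a gene of muscle fusion, fell by 0.80 in females (SE 0.11, adjusted p 0.000604 by edgeR) and by 0.56 in males (SE 0.11, adjusted p 0.00939 by edgeR). The gene beyond Grip163, viaf, was higher in null females (log2 0.46, SE 0.10, adjusted p 0.00540 by edgeR) and did not pass in males (log2 0.24, SE 0.10, adjusted p 0.154 by edgeR).

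**Figure D4:**
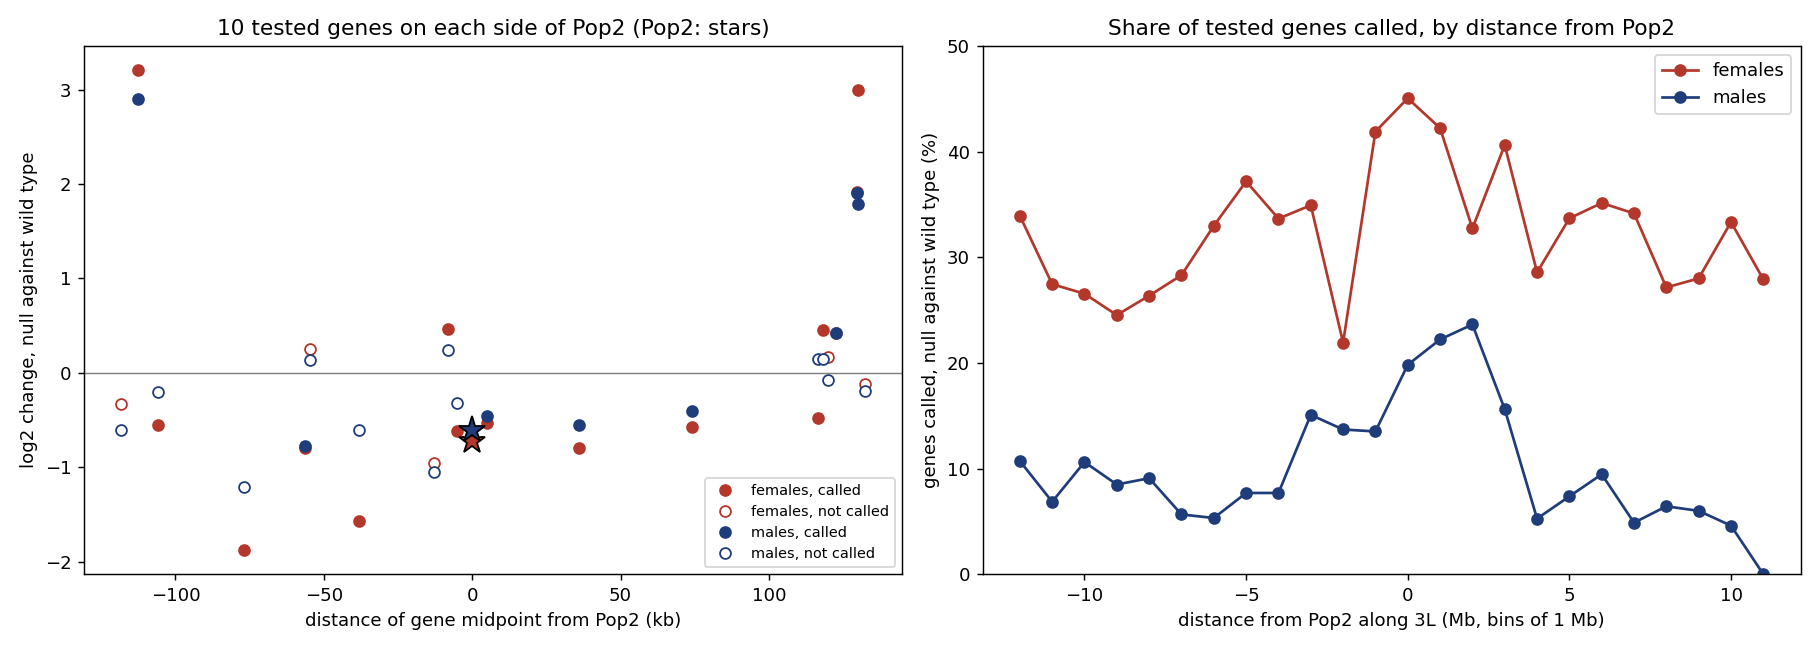
Left, log2 change between null and wild type of the 10 tested genes on each side of Pop2, against the distance of their midpoints from Pop2 in kb; filled points are called and stars are Pop2 itself. Right, the percentage of tested genes called in each sex in 1 Mb bins along 3L, for bins of at least 20 genes; the male share is highest near Pop2.

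Among the 20 tested genes nearest to Pop2, 10 on each side over 251 kb, 9 were called lower and 6 higher in null females, and 4 lower and 4 higher in null males. In both sexes the higher ones included Lsp2, also used above as a fat body marker, and CR11538. The exons of Lsp2 share 84.6% of their length with CR11538 on the other strand, so the counts of this pair may not be separate. The windows of 20 genes around the other 9 members held 0 to 4 genes called lower and 1 to 5 called higher in females, and 0 to 3 lower and 0 to 2 higher in males. The median log2 change in the Pop2 window was -0.41 in females and -0.20 in males. The pattern reached further. Of 593 tested genes within 3.5 Mb of Pop2 on 3L, 37.6% were called in females and 17.5% in males, against 30.0% and 7.17% of the 1605 tested genes on the rest of the arm. That width was set from the plot by distance, and the shares and windows are given without a test. Every null library is of 1 genotype and every wild-type library of the other. For the lower Pop2 level, a difference between the stocks in this stretch of 3L and the loss of Nab2 cannot be told apart. Other genes reported here also lie within 3.5 Mb of Pop2, among them orb2, tral, eIF4E1, smg and the fat body markers Lsp2 and Fbp1. The same limit holds for their values between null and wild type.

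The other genes of tail control, decapping and the partners' complexes were taken from 6 lists of 56 genes in all. Of these 53 had enough counts to test, cup, BicC and nos being too low. In females 10 of 53 passed, 7 lower and 3 higher, below the share of all genes given above. In males 1 passed. Their median log2 change was -0.04 in females and -0.03 in males, close to that of all genes, 0.01 and -0.00.

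Among other deadenylase genes 2 of 10 were lower in null females, where 13.6% of all tested genes were. Rga, which encodes the NOT2 subunit beside Not1, fell by 0.46 on the log2 scale (SE 0.13, adjusted p 0.0207 by edgeR) and PAN2, the catalytic subunit of the other cytoplasmic deadenylase, by 0.26 (SE 0.09, adjusted p 0.0468 by edgeR). In males their values were -0.03 and -0.00, and neither passed. The exons of Rga share 34.4% of their length with an antisense RNA gene, so its counts are uncertain, and its female change was -0.30 without null female library 1 (adjusted p 0.0132 by edgeR). Of the cleavage and polyadenylation genes 1 of 14 passed in each sex, su(f), which encodes the CstF77 subunit that helps cut the RNA before the tail is added. Its levels were 39.6, 50.02 and 44.6 CPM in wild-type and 32.5, 34.7 and 33.7 CPM in null females, and 45.2, 45.6 and 48.0 CPM in wild-type and 37.9, 36.3 and 38.9 CPM in null males. The groups did not overlap in either sex. In females su(f) fell by 0.41 on the log2 scale (SE 0.09, adjusted p 0.00480 by edgeR), a call that held in all 18 alternatives, and in males by 0.30 (SE 0.09, adjusted p 0.0493 by edgeR), a call kept in 7 of 18.

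**Figure D5:**
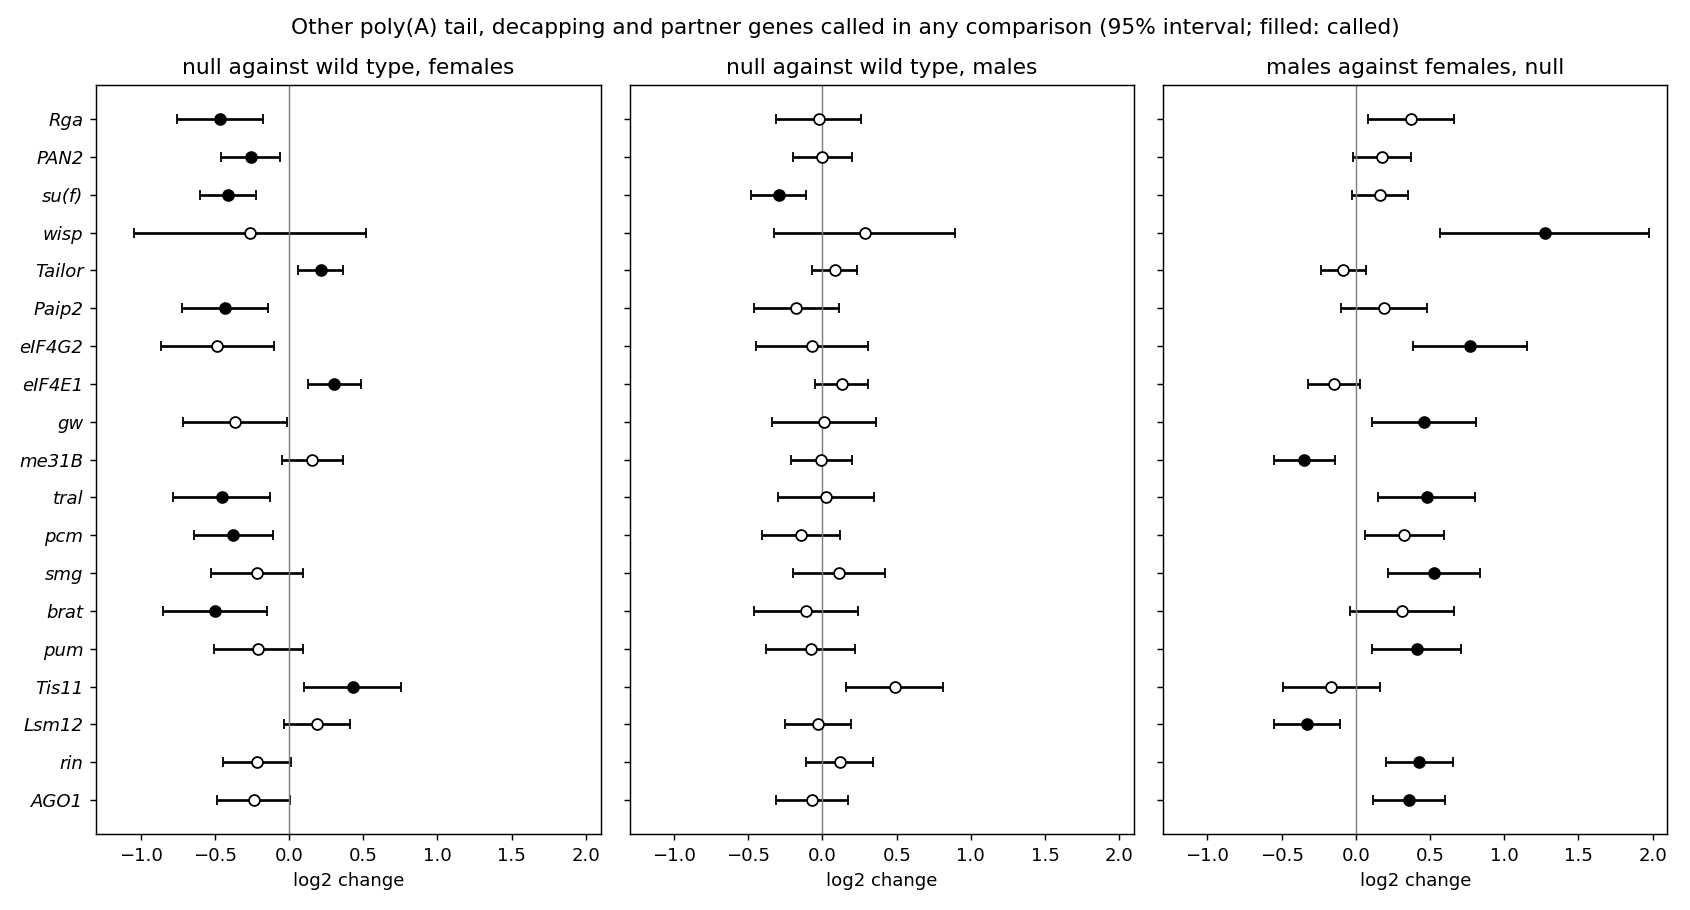
Log2 change with 95% interval of the listed genes other than the members that were called in at least 1 of 3 comparisons (null against wild type in females, in males, and males against females in the null), on the same horizontal scale. Filled points have an adjusted p under 0.05; 10 genes are filled in the first panel, 1 in the second and 10 in the third.

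Of the 5 genes of cytoplasmic polyadenylation and uridylation, Tailor, which adds uridines to RNA ends, rose by 0.21 in null females (SE 0.07, adjusted p 0.0348 by edgeR). Among 12 tested genes of translation control and decapping, Paip2, which removes pAbp from the tail, fell by 0.43 (SE 0.13, adjusted p 0.0290 by edgeR). In the same list tral fell by 0.45 (SE 0.15, adjusted p 0.0367 by edgeR) and pcm, the exonuclease that degrades decapped RNA, by 0.37 (SE 0.12, adjusted p 0.0348 by edgeR). The cap-binding gene eIF4E1 rose by 0.31 (SE 0.08, adjusted p 0.0155 by edgeR). Of 4 tested genes that bring the deadenylases to messages, brat fell by 0.50 (SE 0.16, adjusted p 0.0343 by edgeR) and Tis11, which binds AU-rich elements, rose by 0.43 (SE 0.15, adjusted p 0.0464 by edgeR). In males Tis11 had a log2 change of 0.49 that did not pass (adjusted p 0.0612 by edgeR). The exons of Tis11 share 41.1% of their length with 2 long noncoding RNA genes on the same strand, so its counts are uncertain. Its female call was kept in 4 of 18 alternatives, and without null female library 2 the change was 0.23 (adjusted p 0.168 by edgeR). The change of tral was -0.28 without null female library 1 (adjusted p 0.0408 by edgeR). Under total counts, which shift the median of all genes by -0.11 in females, the values were 0.10 for Tailor (adjusted p 0.289 by edgeR) and 0.19 for eIF4E1 (adjusted p 0.0859 by edgeR). None of the 8 genes associated with Fmr1 or Atx2 passed in either sex.

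The female calls depended on the libraries. Fitting the female libraries alone left 1 of the 10 genes passing, and so did leaving out wild-type female library 2 or 3. With null female library 1 or wild-type female library 1 left out, 5 of the 53 genes passed, and 6 did with wild-type male library 2 left out. The difference of the null effect between the sexes passed for 0 of 53, with 3 at an unadjusted p under 0.05 and 0 by DESeq2.

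In wild type none of the 53 genes passed between the sexes by edgeR, and 2 had an unadjusted p under 0.05, against the 17.3% of all genes given above. In the null 10 of 53 passed, 8 higher and 2 lower in males, a smaller share than the 29.1% of all tested genes. The higher ones were wisp (log2 1.27), eIF4G2 (0.77), smg (0.52), tral (0.48), gw (0.46), rin (0.43), pum (0.41) and AGO1 (0.36), and the lower ones me31B (-0.35) and Lsm12 (-0.33). As background, gw and AGO1 act in microRNA silencing, pum and smg bring CCR4-NOT to messages, and Lsm12 is a partner of Atx2. Without null female library 1 the values were 0.26 for gw, 0.30 for tral and -0.19 for Lsm12, which then did not pass (adjusted p 0.103 by edgeR). Under total counts me31B was at -0.21 (adjusted p 0.121 by edgeR) and Lsm12 at -0.19 (adjusted p 0.104 by edgeR), and neither passed. wisp, a cytoplasmic poly(A) polymerase known from the female germ line, had only 5 to 7 counts in the null female and 14 to 18 in the null male libraries. In place of these 10 genes, 0 passed in a fit of the null libraries by themselves and 6 with the replicate block in that fit. Omitting null male library 3 left 0, and omitting wild-type female library 3, null male library 2 or null female library 1 left 6.

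The genes whose log2 CPM followed each of 3 members most closely over the 12 libraries were sought among 10189 genes that averaged 20 counts or more. For Nab2 they were PH4alphaMP (Pearson r 0.987), ome (0.987) and CG17684 (0.985), and all of them were lower in the null in both sexes. PH4alphaMP ranged from 84 to 104 counts in wild type and from 8 to 16 in the null, and ome, a peptidase gene, fell by 1.69 on the log2 scale in females and by 1.37 in males. For Fmr1 they were fred (0.979), rin (0.979) and Shaw (0.978), a potassium channel gene, and all of them passed as higher in null males than in null females. For Atx2 they were CG30089 (0.958), Atpalpha (0.937), the sodium pump gene, and Alh (0.933). These are descriptions over libraries that share the 4 groups and, in null female library 1, a sample that stands apart. The genes were chosen for their likeness to a member in these same libraries, so differences like that member's follow in part from the choice.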

How the data were processed

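Raw counts per gene from heads (3 libraries in each of 4 groups of sex and genotype) were used as the authors deposited them. Per the submitters' processing notes, STAR 2.5.2b-0, featureCounts 1.6.0.3, DESeq2 2.11.40.1 and build BDGP6 were used, and the strand setting is not given in the sources used here. The authors' deposited table holds log2 fold changes, with standard errors and an adjusted p-value per gene, and its values are named as such. Counts were analysed with edgeR 4.0.16 in R 4.3.3: filterByExpr, TMM factors, 1 quasi-likelihood model of 4 group means over 12 libraries, and Benjamini-Hochberg adjustment over 11223 genes. Calls were made below 0.05. SEs were derived from the test, as the size of the log2 change over the root of its F statistic, and fitted changes carry a prior count of 0.125. Positions, exon lengths and overlaps come from Ensembl release 115 (assembly BDGP6.54), to which 14134 of 17737 names matched by symbol and 3510 by synonym, and the count files hold no coordinates to set against it. The model was tested on simulated data.

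The members, lists and alternatives were chosen with earlier results of these data known. The rule for named genes takes the 10 members, the listed pathway genes called in any of the 5 comparisons, the 3 protein-coding genes on each side of Nab2, and the 3 genes most correlated with each of Nab2, Fmr1 and Atx2 (log2 CPM with a pseudocount of 1, mean count of at least 20). Alternatives were RLE scaling, total counts, no filter, the compared groups alone, a replicate block, unshrunken DESeq2 1.42.0 and leaving out each library. Whether replicate numbers pair the samples was checked by correlating deviations from the group means. Among null males and females all 3 same-numbered pairs exceeded 0.1 (0.374, 0.115 and 0.437). Null female library 2 was, however, closest to a null male library of another number. Numbers were taken there to pair the libraries, from the data and not from the labels, though library 2 did not bear it out. A block within the null libraries was added after the data were seen. In the other comparisons at least 1 pair was under 0.1. Wild-type males and females gave 0.393, -0.226 and 0.415.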

Additional observations from a re-analysis of the deposited data

Results flagged for a closer look

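Fmr1 was singled out because the null female and null male libraries lay on opposite sides of the wild-type means. The male groups overlapped, and the share of all tested genes with this pattern is not given here. All 3 null female libraries (38.1, 51.7 and 49.0 CPM) were below the wild-type female mean of 52.5 CPM, and all 3 null male libraries (57.0, 55.9 and 62.6 CPM) were above the wild-type male mean of 55.2 CPM. The difference of the null effect, female minus male, was -0.27 on the log2 scale (SE 0.15, 95% interval -0.59 to 0.06). Adjusted over all genes it did not pass (p 0.443 by edgeR), and 17 alternatives gave adjusted p from 0.257 to 0.680. Null female library 1 was the farthest from the others. The difference was -0.35 to -0.16 over the alternatives, and -0.16 without that library.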

How the results depend on the processing

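Pop2 and Nab2 were called in both sexes under all 18 alternatives. The members called numbered 2 to 3 in females, 2 in males, 0 in the difference and in wild type between the sexes, and 1 to 4 between null males and females when 1 library was left out. The last count of 3 was 5 under total counts and under DESeq2, and 1 when the null libraries were fitted alone or without null male library 3. Over all genes, leaving out 1 library gave 2068 to 3838 calls in females, 624 to 1852 in males, 0 to 3 in the difference, 149 to 848 in wild type and 914 to 3696 in the null. Fitting the compared groups alone gave 2303 in females, 671 in wild type and 571 in the null. DESeq2 gave 28 in the difference and 669 in wild type, and the difference had 2 with no filter and 0 with the replicate block. Pathway genes called were 1 in females, 2 in males, 1 in wild type and 0 in the null with the compared groups alone. In males they were 0 under RLE scaling, 0 with no filter and 2 with DESeq2, and in the null 6 with the replicate block in the null libraries. Leaving out 1 library gave 1 to 10 in females, 0 to 2 in males, 0 in the difference, 0 in wild type and 0 to 15 in the null.

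Total counts shifted the median of all genes by -0.11 in females and 0.13 between null males and females, and turned the splits of higher and lower genes from 2042 and 1531 to 1392 and 2253, and from 1471 and 1794 to 2078 and 859. RLE scaling gave 1614 and 1510 in the latter. Elsewhere than between null males and females the shared replicate numbers were not taken to pair the libraries. With the replicate block over all 12 libraries Not1 passed in females (log2 -0.29, adjusted p 0.0499 by edgeR), and twin had log2 -0.28 (adjusted p 0.0138 by edgeR). No other call on a member changed under it.

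Directions turned only for changes that were not called, and the cause was not tested. Leaving out 1 library gave log2 ranges across 0 for Rrp5 (CG5728) in females (-0.068 to 0.049), and in males for Atx2 (-0.19 to 0.012), hrg (-0.013 to 0.059), twin (-0.069 to 0.086), orb2 (-0.056 to 0.11) and BRWD3 (-0.15 to 0.068). In the difference these were Nab2 (-1.10 to 0.74), Atx2 (-0.10 to 0.10) and pAbp (-0.12 to 0.12), in wild type between the sexes Pabp2 (-0.077 to 0.099), hrg (-0.021 to 0.017) and Pop2 (-0.038 to 0.040), and in the null Nab2 (-0.69 to 1.152) and pAbp (-0.24 to 0.0085). Total counts turned Dis3 in females (-0.063), hrg (-0.020) and orb2 (-0.020) in males, Atx2 (-0.053) and pAbp (-0.065) in the difference, Pop2 in wild type (0.047) and pAbp in the null (0.00091). The pAbp difference was also -0.020 under RLE scaling, -0.0099 with the replicate block and -0.022 under DESeq2, twin in males 0.0016 under DESeq2, and Pop2 in wild type 0.00090 under RLE scaling and 0.0069 with the compared groups alone.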
